A study of Homo sapiens with 9 samples.

Results

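A set of 10 genes that ERK signalling switches on, or that limit it, was followed through 9 RNA-seq libraries of Daoy, an established medulloblastoma cell line (medulloblastoma is a childhood tumour of the cerebellum). These genes were EGR1, EGR2, EGR3, FOS, FOSL1, DUSP4, DUSP6, SPRY2, SPRY4 and IL17RD, of 57820 gene identifiers in the count tables, and each of the 10 symbols matched 1 identifier. EGR3 and IL17RD head the list because their levels had been seen to fall when the RNA helicase DDX3X was knocked down, and the other 8 were listed for their role in the same pathway. The question was whether ERK feedback as a whole moved with DDX3X in each library. The 2 control libraries came from parental cells and from vector control cells. The 3 knockdown libraries carried a short hairpin RNA under doxycycline control against the 3' untranslated region (UTR) of DDX3X (shDDX3X 1 and shDDX3X 3) or against its open reading frame (shDDX3X 2). Another 4 libraries are labelled as carrying the UTR hairpin together with FLAG-tagged DDX3X, as the wild type or as the mutant G302V, R534H or P568L. There was 1 library for each of these 4 lines, and the 3 mutants were compared as a class. The hairpin lines were polyclonal populations, and the labels give treatment with doxycycline at 1 µg/ml for 72 h in the same words for every library, so whether the controls received the drug is unknown. An effect of doxycycline and an effect of knockdown therefore cannot be told apart in comparisons with control.

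When a growth factor such as FGF or EGF binds its receptor, RAS and the RAF, MEK and ERK kinases are activated in turn. Active ERK induces FOSL1 and, within minutes, immediate early genes, among them the zinc finger factors EGR1, EGR2 and EGR3 and the AP-1 subunit FOS. It also induces its own inhibitors: the phosphatases DUSP4 and DUSP6, which remove the activating phosphates from ERK, and the Sprouty proteins SPRY2 and SPRY4, which act between receptor and RAF. IL17RD, also known as SEF, is a membrane protein that limits FGF signalling. Transcripts of these genes are widely read as a sign of how strongly the pathway has been running.

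The early genes are known for the CArG box, the site at which serum response factor, the partner of ERK-regulated ETS factors, binds. The following stretches of 30 bases show the CArG boxes (in capitals) in the promoter windows of the listed genes, given on the strand of the gene, from RefSeq, build GRCh38.p14, at chr5:138465364-138465393 and chr5:138465386-138465415 for EGR1 (plus strand) and chr10:62816418-62816447 for EGR2 (minus strand).
EGR1, first box: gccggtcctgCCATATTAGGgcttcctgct
EGR1, second box: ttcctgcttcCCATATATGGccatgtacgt
EGR2: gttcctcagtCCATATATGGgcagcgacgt
A window ran from 250 bases before to 50 bases after an annotated start. Sites further upstream were not searched for, so a window without a box does not mean a gene without one. A CArG box was found in 454 of 35116 windows (1.29%), and CCGGAA, 1 form of the ETS site, searched on both strands, in 6057 (17.2%). The EGR1 window held 2 boxes and 1 of the 3 EGR2 windows held 1. The windows of FOS (1), DUSP6 (1), SPRY2 (3), SPRY4 (1) and IL17RD (2) held no CArG box, and CCGGAA was found in 1 SPRY2 window. Shorter or other forms of the ETS site were not searched for. EGR3, FOSL1 and DUSP4 were not searched.

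Each library had 8216568 to 13030572 reads in genes. Numbers in the deposited names place the libraries in 2 series: the parental library, shDDX3X 1 and shDDX3X 2 (series A, with 5.24% to 5.73% of reads unaligned) and the 6 remaining ones (series B, with 19.6% to 24.0%). No label ties the series to a run, and because the controls of the series are different cells, each library is set below against the control of its own series, parental for A and vector for B. Levels are CPM, counts scaled to a common library size and corrected by TMM for library composition. DDX3X stood at 683 CPM in the parental and 453 CPM in the vector library, and at 249, 139 and 182 CPM in shDDX3X 1, 2 and 3. The libraries labelled wild type, G302V, R534H and P568L had 195, 198, 211 and 242 CPM, inside the range of the knockdowns and below both controls. All were above shDDX3X 3, the knockdown library of their own series. Against knockdown the DDX3X log2 fold change was 0.24 ± 0.34 (SE, edgeR adjusted p = 1) in the library labelled wild type and 0.39 ± 0.27 (adjusted p = 0.842) in those labelled mutant, so a rise of the DDX3X transcript was not called. The gene counts do not separate the tagged from the endogenous transcript. These 4 are therefore called transgene-labelled libraries, and a line's name below (wild type, G302V, R534H, P568L) is its label. Of 15 neural markers, 12 were at 1 CPM or more in every library, while ATOH1, a marker of granule neuron precursors, had no count in 8 libraries and NEUROD1 stayed below 1 CPM. Of 10 haematopoietic, endothelial and epithelial markers, 7 stayed below 1 CPM in every library and the highest of the 10 reached 1.84 CPM. The summed level of the 3 epithelial markers moved with the groups, at 1.48 to 1.95 CPM in the controls, 0.166 to 0.709 CPM in the knockdowns, 0.816 CPM with the wild type and 0.307 to 0.634 CPM in the mutants, and its part in the results was not tested.

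EGR3, a transcription factor induced alongside EGR1, was scarce in every library and scarcest in the knockdowns. It stood at 2.73 CPM (35 reads) in the parental and 2.37 CPM (24 reads) in the vector library. Far fewer reads came from the knockdowns, with 0.248 CPM (3 reads) in shDDX3X 1, 0.587 CPM (7 reads) in shDDX3X 2 and 0.355 CPM (3 reads) in shDDX3X 3. The knockdown values lay below those of all other libraries, with no overlap. As a share of the control of the same series, EGR3 amounted to 0.091 for shDDX3X 1 (95% exact counting interval 0.0179 to 0.289), 0.215 for shDDX3X 2 (0.0806 to 0.491) and 0.150 for shDDX3X 3 (0.0289 to 0.493). The fitted log2 fold change, knockdown against control, was -2.68 ± 0.49 (SE). Since EGR3 was chosen for its fall in these libraries, the lack of overlap, the intervals and the fitted value are a description. In bulk RNA, fewer cells with a transcript and less of it per cell cannot be told apart.

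In the 4 transgene-labelled libraries, where DDX3X itself stood inside the range of the knockdowns of both series, EGR3 lay between the knockdowns and the controls. It was at 1.51 CPM with the wild type, 1.33 CPM with G302V, 1.90 CPM with R534H and 1.31 CPM with P568L, from 11 to 18 reads. The order over the 9 libraries was parental, vector, R534H, wild type, G302V, P568L and then the 3 knockdowns. Against vector the ratio was 0.640 with the wild type (0.299 to 1.31), 0.562 with G302V (0.248 to 1.19), 0.803 with R534H (0.411 to 1.54) and 0.552 with P568L (0.278 to 1.07). All 4 values were below 1, and all 4 counting intervals included 1, so a difference from vector was not detectable at this depth. Each of the 4 ratios also lay inside the intervals of the other 3, and their order is not resolved.

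IL17RD was more abundant, and its knockdown values were also the lowest of the 9. It had 63.9 CPM in the parental and 32.6 CPM in the vector library. The knockdowns had 7.12, 6.79 and 16.2 CPM in shDDX3X 1, 2 and 3. Against the control of the same series this was a log2 ratio of -3.08 and -3.14 with the UTR and open reading frame hairpins of series A, and -0.99 in shDDX3X 3. The fitted log2 fold change was -2.32 ± 0.43 (SE). IL17RD then stood at 39.2 CPM with the wild type, 54.0 CPM with G302V, 52.4 CPM with R534H and 30.5 CPM with P568L. On CPM + 0.5, these 4 values were 1.86 to 3.27 times that of shDDX3X 3, and 3 of them lay above the vector library.

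EGR3 and IL17RD were taken up because edgeR called both between knockdown and control (adjusted p = 0.0482 and 0.0488), so these values are a description. The next of the 10 by this measure was FOSL1 (adjusted p = 0.115). The 2 calls are set beside 0.675% of the 16155 genes tested, and nothing is read from them. Among the other 8 the fitted log2 fold changes ran from -0.99 ± 0.55 (SE) for FOS to 1.32 ± 0.41 for FOSL1, with 4 above and 4 below 0. All 10 genes passed the filter on low counts. Both calls sat close to the threshold of 0.05: they were lost with DESeq2 size factors (0.051 for each), without a series term (0.145 and 0.185), without the parental control (0.442 and 0.519), without shDDX3X 1 (0.120 and 0.152) and without any 1 mutant library (0.103 to 0.135). Without shDDX3X 2 the IL17RD call was lost (0.0969). Without the parental control the IL17RD log2 fold change was -1.01, against -3.20 without the vector control.

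**Figure D1:**
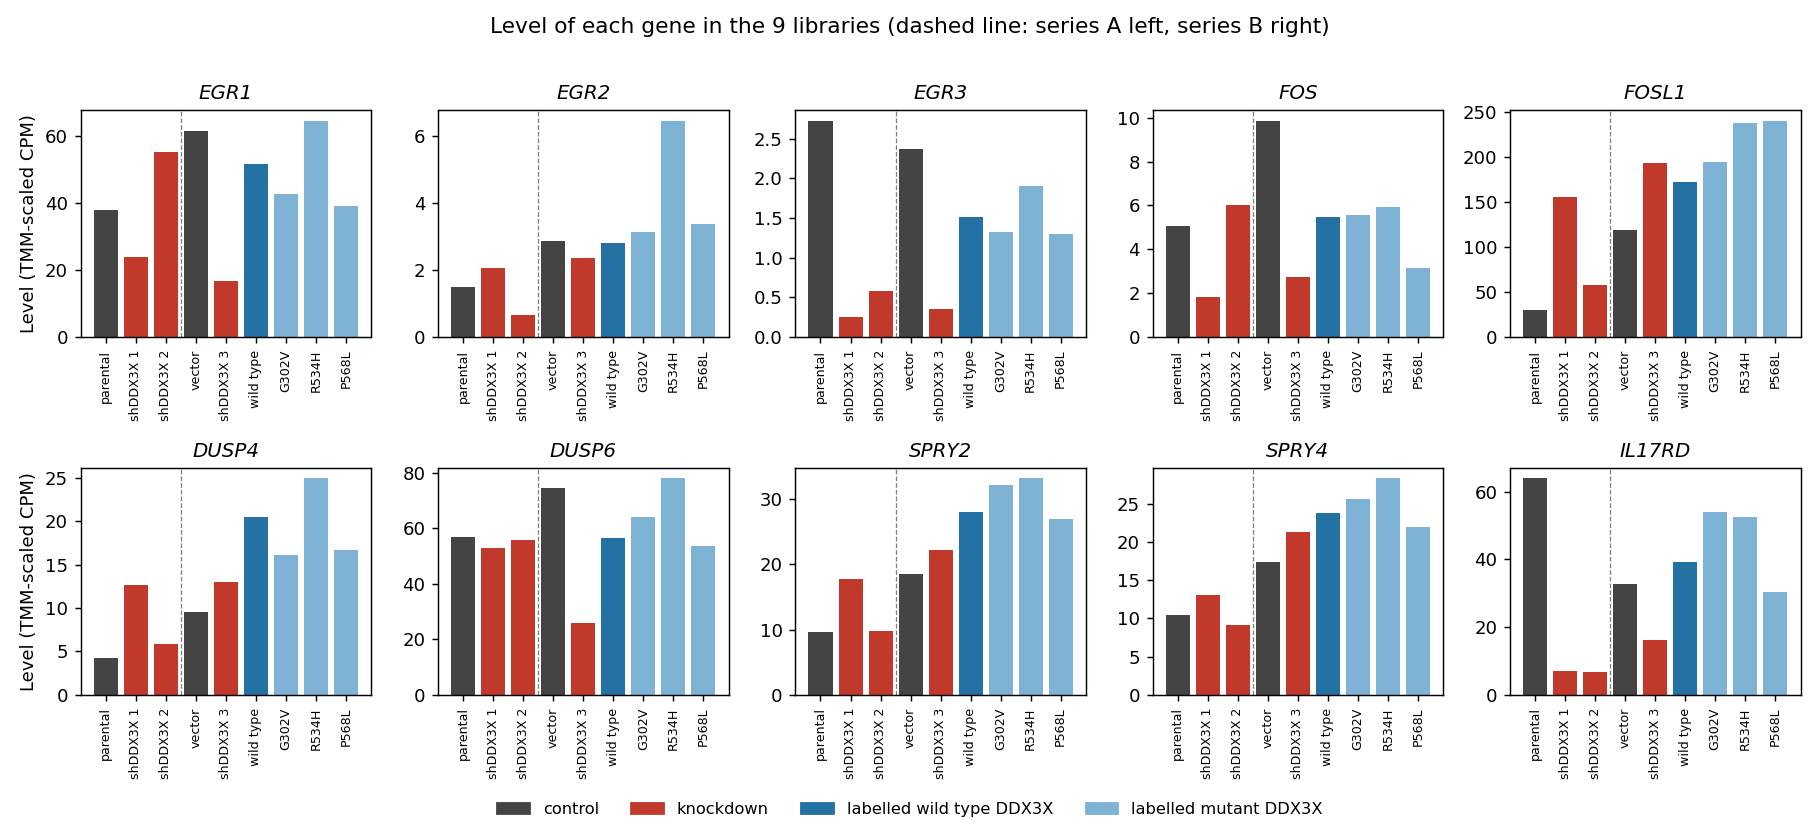
Level of each of the 10 genes in each library (vertical axes: TMM-scaled CPM, starting at 0; 1 bar per library, coloured by group; the dashed line separates series A from series B). EGR3 and IL17RD are lowest in the 3 knockdown libraries, whereas EGR1, FOS and DUSP6 are low in shDDX3X 3 but not in shDDX3X 2.

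The early genes EGR1 and FOS did not share that pattern. EGR1, which is induced within minutes of ERK activation, stood at 37.7 CPM in parental and 61.3 CPM in vector cells. It was at 23.8 and 16.8 CPM in shDDX3X 1 and 3, which carry the UTR hairpin, but at 55.0 CPM in shDDX3X 2, which carries the hairpin against the open reading frame. FOS had 5.07 and 9.86 CPM in the controls, 1.82 and 2.72 CPM in shDDX3X 1 and 3 and 6.03 CPM in shDDX3X 2. For both genes shDDX3X 1 and 3 were the lowest of the 9 and the shDDX3X 2 value was above parental, so the knockdown and control groups overlapped. The transgene-labelled libraries, also labelled with the UTR hairpin, lay above shDDX3X 1 and 3 for each gene. With 1 library of the second hairpin, a difference between hairpins was not tested.

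In series B, EGR1 was higher in each transgene-labelled library than in shDDX3X 3. It was at 51.5 CPM with the wild type, 42.7 with G302V, 64.4 with R534H and 39.0 with P568L, of which R534H exceeded the vector library. FOS stood at 5.48, 5.56, 5.92 and 3.15 CPM in these 4 libraries, all above shDDX3X 3 and all below vector. On CPM + 0.5, FOS with P568L was 1.13 times the shDDX3X 3 value, against 1.86 to 1.99 times in the other 3.

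EGR2, known for its part in hindbrain patterning and myelination, was scarce and varied within groups. It had 1.48 and 2.86 CPM in the controls, 2.07, 0.67 and 2.36 CPM in shDDX3X 1, 2 and 3, 2.80 CPM with the wild type, then 3.14 CPM with G302V, 6.44 with R534H and 3.38 with P568L. Its lowest value was in the open reading frame hairpin library and its highest in R534H, and knockdowns and controls overlapped.

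FOSL1, which encodes the AP-1 subunit FRA-1, ran the other way. It had 30.0 CPM in the parental and 120 CPM in the vector library, and 155, 57.8 and 193 CPM in shDDX3X 1, 2 and 3. Every knockdown library was above the control of its own series, by a log2 ratio of 2.35, 0.93 and 0.69. The transgene-labelled libraries were also above vector, with 172 CPM for the wild type, 195 for G302V, 238 for R534H and 241 for P568L. The FOSL1 transcript is rich in GC (60.0%), and the parental library was low in GC-rich genes (Spearman -0.61 between GC content and deviation from the mean of the libraries, across 15784 genes, which are not independent replicates). After removal of each library's GC trend, the series A ratios were 1.72 and 0.25, and the series B ratio was 0.64.

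The phosphatases went separate ways. DUSP6, the cytoplasmic phosphatase that acts on ERK, was almost level in series A, at 56.7 CPM in parental, 52.9 in shDDX3X 1 and 55.8 in shDDX3X 2. In series B it was at 74.6 CPM in vector, 25.8 in shDDX3X 3, 56.6 with the wild type, 64.0 with G302V, 78.0 with R534H and 53.7 with P568L. Thus shDDX3X 3 alone was low, and the transgene-labelled libraries were 2.06 to 2.99 times that library (on CPM + 0.5, as are all folds of shDDX3X 3 below).

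DUSP4, a nuclear phosphatase of ERK and related kinases, had its lowest values in the controls of each series. It was at 4.29 CPM in parental against 12.7 and 5.87 in shDDX3X 1 and 2, and at 9.57 in vector against 13.0 in shDDX3X 3. The transgene-labelled libraries were higher again, at 20.5 CPM with the wild type, 16.1 with G302V, 24.9 with R534H and 16.7 with P568L. All 4 exceeded every control and knockdown library.

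SPRY2 and SPRY4, the Sprouty inhibitors, were, like DUSP4, highest in the transgene-labelled libraries. SPRY2 had 9.59 CPM in parental, 17.7 and 9.72 in shDDX3X 1 and 2, 18.5 in vector and 22.2 in shDDX3X 3, then 28.0 with the wild type, 32.2 with G302V, 33.2 with R534H and 27.0 with P568L. SPRY4 had 10.4, 13.1 and 9.13 CPM in series A, 17.4 in vector and 21.3 in shDDX3X 3, then 23.8, 25.6, 28.3 and 21.9 CPM. For both genes these 4 libraries were the highest of the 9, although SPRY4 in P568L was only 1.03 times its level in shDDX3X 3. Neither gene was lower than its control in shDDX3X 1 or shDDX3X 3, the libraries in which EGR1 and FOS were lowest.

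**Figure D2:**
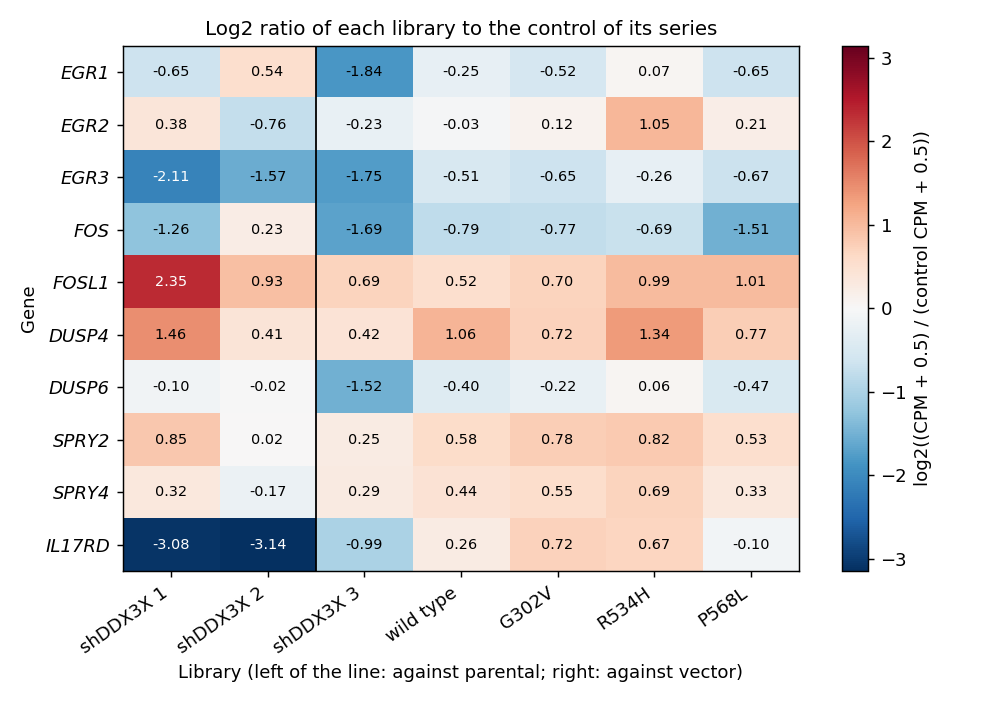
Log2 ratio of each gene in each library to the control of its series, computed on CPM + 0.5 (rows: genes; columns: libraries; red above and blue below the control). EGR3 and IL17RD are blue in the 3 knockdown columns, while DUSP4 and FOSL1 are red in all 7 columns.

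Read library by library, the 10 genes did not move as a set. A gene was counted where it lay at least 1.5-fold from the control of its series, and the share of all 16155 genes that did so is given beside each count. In shDDX3X 1, 4 of 10 were lower (EGR1, EGR3, FOS and IL17RD; background 15.3%) and 3 higher (FOSL1, DUSP4 and SPRY2; background 21%). In shDDX3X 2, 3 were lower (EGR2, EGR3 and IL17RD; background 15.5%) and FOSL1 was higher (background 20.8%). In shDDX3X 3, 5 were lower (EGR1, EGR3, FOS, DUSP6 and IL17RD; background 12.6%) and FOSL1 was higher (background 9.34%). EGR3 and IL17RD, which are in each of these counts of lower genes, were chosen for it.

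Over the 10 genes, shDDX3X 1, 2 and 3 had median log2 ratios of 0.11, -0.0016 and -0.61, against -0.016, -0.019 and -0.0055 for all genes tested. So shDDX3X 3 was the knockdown library with more of the set below its control, and in series A the members above and below the parental library balanced. The 3 libraries differ in series as well as hairpin, and shDDX3X 1 and 3 carry the same hairpin.

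The transgene-labelled libraries were set against vector in the same way. With the wild type, FOS was lower (background 7.86%) and DUSP4 higher (background 8.18%), and the other 8 genes lay within 1.5-fold. With G302V, 2 were lower (EGR3 and FOS; background 11.3%) and 4 higher (FOSL1, DUSP4, SPRY2 and IL17RD; background 8.88%). With R534H, FOS was lower (background 13.1%) and 6 were higher (EGR2, FOSL1, DUSP4, SPRY2, SPRY4 and IL17RD; background 11.2%). With P568L, 3 were lower (EGR1, EGR3 and FOS; background 13.8%) and 2 higher (FOSL1 and DUSP4; background 10.1%).

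DUSP4 was higher and FOS lower than vector past that limit in each of the 4. The medians were 0.12 with the wild type, 0.33 with G302V, 0.68 with R534H and 0.06 with P568L, and those of all genes tested lay between -0.0034 and 0.0073. R534H had the highest level of these 4 libraries for 8 of the 10 genes, the exceptions being FOSL1 and IL17RD. The share of all genes tested with their highest level in R534H was not computed, so nothing is read from this count. With 1 library per line, no line was tested against another. All 4 ratios share the 1 vector library.

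**Figure D3:**
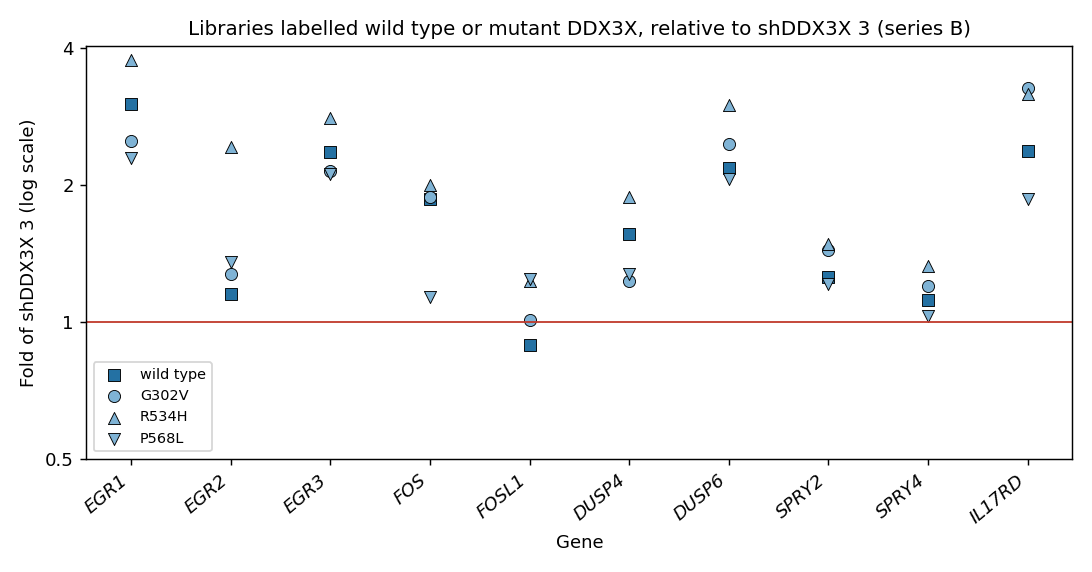
Level of each gene in the 4 transgene-labelled libraries as a multiple of shDDX3X 3, the knockdown library of the same series and hairpin (vertical axis: fold on a log scale, from CPM + 0.5; red line: equal to shDDX3X 3). EGR1, EGR3, DUSP6 and IL17RD are at least 1.86 times shDDX3X 3 in all 4 libraries, and FOSL1 and SPRY4 lie close to the line.

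The transgene-labelled libraries were compared with knockdown to ask which of the 10 genes differed, although DDX3X was not called between them. Relative to shDDX3X 3, which shares series and hairpin with them, at least 1.5-fold higher levels were found for 6 genes with the wild type (background 8.78%), 5 with G302V (7.08%), 7 with R534H (6.75%) and 4 with P568L (6.42%). For none of the 10 was the level at least 1.5-fold lower (background 4.74%, 6.05%, 6.08% and 7.81%). The lowest EGR1 value was 2.29 times, the lowest EGR3 value 2.11 times and the lowest DUSP6 value 2.06 times that of shDDX3X 3. These ratios share shDDX3X 3, and EGR3 and IL17RD were chosen partly for their level in it. Over both series, the 4 transgene-labelled libraries lay above the 3 knockdown libraries, with no overlap, for EGR2, EGR3, DUSP4, SPRY2, SPRY4 and IL17RD, 6 of 10 against 5.49% of all genes, and below them for none (background 4.46%). That count includes EGR3 and IL17RD, and for EGR2, DUSP4, SPRY2 and SPRY4 the vector library was also above the parental one, a difference between the series that moves with it and whose part in the count was not tested.

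In the fit with the series as a term, no gene was called between mutants and knockdown (0% of genes tested; 894 at an unadjusted p under 0.05 by edgeR, and 23 called by DESeq2) or between wild type and knockdown (0%; 472 and 3). For the 8 genes not chosen on the knockdown libraries, the largest fold changes of mutants against knockdown were those of EGR1 (log2 0.87 ± 0.57 SE, edgeR adjusted p = 0.833), DUSP6 (0.85 ± 0.36, 0.831) and EGR2 (0.82 ± 0.58, 0.842). With the wild type they were EGR1 (0.95 ± 0.68), DUSP6 (0.65 ± 0.44) and FOSL1 (-0.51 ± 0.55), each with adjusted p = 1. Without shDDX3X 3, the log2 difference between mutants and knockdown was -0.40 for EGR1 and -0.14 for DUSP6, and that between wild type and knockdown was -0.32 and -0.34, so the direction of both rested on that library. EGR3 and IL17RD had log2 fold changes of 2.04 ± 0.59 and 2.07 ± 0.48 in mutants against knockdown and 2.05 ± 0.73 and 1.85 ± 0.57 in wild type against knockdown, given as a description because the knockdown values chose them. The median over the 10 genes was 0.61 for the mutants and 0.47 for the wild type, against 0.0057 and -0.016 for all genes tested.

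The mutants were also compared with the wild type, a comparison whose estimate holds no control or knockdown library. Its spread, like that of the comparison on which EGR3 and IL17RD were chosen, comes from the control, knockdown and mutant libraries. The 1 wild type library adds nothing to it. No gene was called (0% of genes tested; 315 at an unadjusted p under 0.05 by edgeR, and 0 called by DESeq2). EGR3 differed by a log2 fold change of -0.0073 (95% interval -1.30 to 1.28) and IL17RD by 0.22 (-0.97 to 1.40). The EGR3 estimate lay so close to 0 that its sign turned under several alternatives. The largest estimates were those of EGR2 (0.62, -0.83 to 2.07) and FOSL1 (0.38, -0.68 to 1.45), and the narrowest interval was that of SPRY4 (0.09, -0.54 to 0.72). With 1 wild type library, assumed to vary as the other groups do, the intervals reached 1.5-fold in both directions for 9 of the 10 genes, and for SPRY4 they ran from 0.685 to 1.65 in fold.

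**Figure D4:**
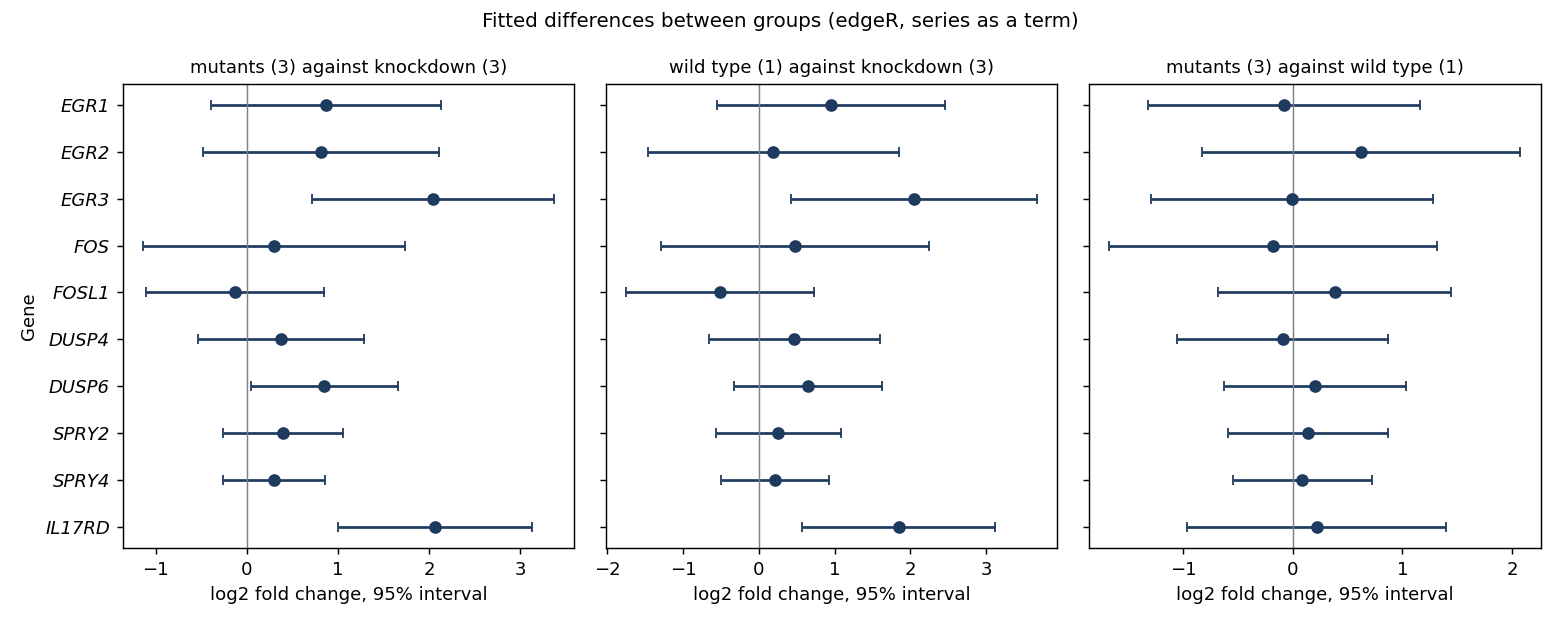
Fitted log2 fold changes of the 10 genes (points) with 95% intervals (bars) for mutants against knockdown, wild type against knockdown and mutants against wild type (horizontal axes: log2 fold change; number of libraries in brackets). In the right panel every interval spans 0. EGR3 and IL17RD stand furthest from 0 in the other 2 panels and were chosen on the knockdown values used there.

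The knockdown difference of IL17RD was not the same in the 2 series. The log2 difference from control was smaller in series B than in series A by 2.19 ± 0.51 (SE, edgeR adjusted p = 0.0439), in a fit in which 3.19% of genes differed between the series. For EGR3 the same term was -0.02 ± 0.93, and for DUSP6 it was -1.47 ± 0.39 (adjusted p = 0.066). The IL17RD call was lost with the GC trend removed (adjusted p = 0.211, log2 2.06), without shDDX3X 2 (0.0567) and without R534H (0.0782). Series B has 1 knockdown and 1 control library, and series and control cells cannot be told apart. A gene's residual spread in this fit comes from shDDX3X 1 against shDDX3X 2 and from the mutant libraries. IL17RD was chosen on the same knockdown and control libraries, so its value and p here are a description.

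Other genes of the pathway were read from lists by role. Of all 16155 genes tested, 0.675% were called between knockdown and control. At that share few calls would be found in lists of this size, so nothing is read from a list without a call. Of 9 ligands tested (of 14 listed), PDGFA, a platelet-derived growth factor chain, rose with knockdown (log2 1.42 ± 0.25 SE, edgeR adjusted p = 0.0449). It stood at 8.18 and 12.5 CPM in the controls and at 28.9, 25.6 and 25.3 CPM in the knockdowns. With the wild type PDGFA was at 26.2 CPM and with G302V, R534H and P568L at 18.4, 24.9 and 22.4 CPM, all above both controls. FGF9, an FGF ligand, followed with -1.78 (adjusted p = 0.0511). Of 11 receptors, the insulin-like growth factor receptor IGF1R rose (0.95 ± 0.18, edgeR adjusted p = 0.0495), from 113 and 128 CPM in the controls to 218, 257 and 223 CPM, and FGFR2 had -0.96 (0.135). IGF1R was also above both controls with the wild type (181 CPM) and with G302V, R534H and P568L (198, 257 and 214 CPM). None of 20 cascade components was called, with the smallest p for HRAS (1.08, adjusted p = 0.0569) and the ERK-activated kinase gene RPS6KA1 (-0.62, 0.128). None of 15 other feedback inhibitors (of 16 listed) was called; LRIG1, an inhibitor of EGF receptors, had 1.12 (0.081) and the phosphatase DUSP7 1.21 (0.0907).

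Of 29 other early and ERK target genes tested (of 30 listed), the ephrin receptor EPHA4 fell (log2 -1.22 ± 0.21, edgeR adjusted p = 0.0449), while its relative EPHA2 had a log2 fold change of 2.28 (0.0533). EPHA4 stood at 34.8 and 33.3 CPM in the controls, 17.4, 12.7 and 14.1 CPM in the knockdowns, 23.5 CPM with the wild type and 14.9, 18.6 and 15.6 CPM in the mutants. It was thus lower than the controls in all 7 other libraries. The calls of PDGFA, IGF1R and EPHA4 were lost without the parental control (adjusted p = 0.424, 0.429 and 0.369), and each also lay above 0.05 without shDDX3X 1 or any 1 mutant library, without a series term and with a mean of at least 5 CPM required. The list medians, knockdown against control, were 0.86 for ligands, 0.23 for receptors, -0.04 for the cascade, -0.06 for other inhibitors and 0.0071 for other targets. They were -0.44 for the 10 genes and -0.009 for all genes tested. These pooled medians hide a split by series. Against the control of the series, the ligand median was 1.19, 0.58 and -0.45 in shDDX3X 1, 2 and 3. The receptor medians were 0.39, 0.09 and -0.10, and those of the 10 genes 0.11, -0.0016 and -0.61.

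In the other comparisons no gene of these lists was called by edgeR, as no gene was called at all. For mutants against knockdown, the smallest p in each list belonged to FGF9 (log2 1.06), FGFR4 (-2.03), HRAS (-0.60), DUSP9 (-1.68) and PHLDA1 (0.88), followed by PDGFA (-0.41), FGFR3 (-1.16), DUSP5 (0.57) and SRF (-0.59). For the wild type against knockdown they were FGF9 (1.01), ERBB2 (0.61), MAPK3, which encodes ERK1 (0.48), RASA1 (-0.75) and DUSP1 (-1.16), followed by TGFA (0.56), FGFR3 (-0.87), HRAS (-0.43), SPRED3 (1.60) and PHLDA1 (1.06). For the mutants against the wild type they were TGFA (-0.50), PDGFRA (-1.12), RPS6KA3 (0.24), RASA1 (0.55) and EPHA4 (-0.53), followed by EREG (-1.02), FGFR4 (-1.13), DUSP9 (-1.20) and DUSP1 (0.58). PHLDA1, a target of ERK that is used in transcript scores of the pathway, was at 240 and 158 CPM in the controls, 152, 86.5 and 90.0 CPM in the knockdowns, 180 CPM with the wild type, and 169, 156 and 153 CPM in the mutants. The knockdown difference also differed between series for JUNB (log2 -4.13, edgeR adjusted p = 0.00976), HBEGF (-2.69, 0.0414) and DUSP7 (-1.58, 0.0354), set beside 3.19% of all genes tested. None of these 3 was called with the GC trend removed, where the log2 values were -2.74, -2.71 and -1.09. HBEGF and DUSP7 were also not called without R534H or without P568L.

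The genes whose levels ran most like those of EGR3 and IL17RD were looked for among 11575 genes with a mean of at least 5 CPM, by Pearson correlation over the 9 libraries after subtraction of each series' mean. For EGR3 these were C14orf119 (r = 0.986), TOB1 (0.982), SULF1 (0.975), LINC02154 (0.973) and CDON (0.955). For IL17RD they were PHYH (0.982), SULT1C2 (0.980), PPARGC1A (0.975), ARHGEF3 (0.969) and NALF1 (0.964). The 9 points share 3 knockdown libraries that are low for both genes, and among so many genes high values are found by search, so these are a description. The fitted knockdown difference of TOB1, an antiproliferative gene, was a log2 fold change of -0.45, and those of SULF1, an enzyme that edits heparan sulfate, and PPARGC1A, a coactivator of mitochondrial genes, were -3.31 and -2.55.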

How the data were processed

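The authors deposited raw read counts per gene for 9 libraries, 57820 versioned Ensembl identifiers each. Libraries were poly(A) selected and prepared with TruSeq v2, which does not mark strand, with 100 nt single-end reads, per the labels' protocols. Hence reads of overlapping or antisense genes cannot be told apart. HISAT2, HTSeq, bcl2fastq, DESeq2, hg19 and GRCh37 are named in the submitters' processing notes, without version or setting. The 5 HTSeq summary lines, 20.3% to 35.8% of reads, named no gene and were left out. Symbols were matched by identifier (89.9% matched). GENCODE v29 transcripts gave GC content only.

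Groups were tested with edgeR (4.0.16, under R 4.3.3; quasi-likelihood, robust) after TMM. Genes reaching 1 CPM in 2 or more libraries entered (16155), with group and series as terms, all 9 libraries in 1 fit (4 residual degrees of freedom) and Benjamini-Hochberg adjustment over all genes, called at 0.05. It was tested on simulated data. The difference between series in the knockdown effect was 1 further term. Ratios per library used CPM + 0.5. A count of 3 reads corresponds to 0.230 to 0.365 CPM. Intervals of reads cover counting error only. No pair of libraries within a group agreed within sampling noise (chi-square over its degrees of freedom, 10.6 to 93.5). Nothing in the labels says that replicates were separate cultures. The knockdown libraries also differ in hairpin and the mutant libraries in mutation. The p-values thus reflect a spread that mixes such differences with noise that may be technical. Alternatives were DESeq2 (1.42.0) and its size factors, other filters, no series term, a replicate block, GC trend removal and leaving out libraries. All 10 members and the wider lists were chosen with earlier results of these data known. Named from the wider lists are genes called in any comparison and the 2 with the smallest p per list and comparison, except for some cascade genes that are not reported here. JUNB, HBEGF and DUSP7 in the comparison of series were named after their values were seen.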

Additional observations from a re-analysis of the deposited data

Results flagged for a closer look

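The knockdown difference of IL17RD differed between the series by a log2 value of 2.19 (edgeR adjusted p = 0.0439, a test of the difference itself): IL17RD lay below the control in 3 of 3 knockdown libraries, with log2 ratios of -3.08 and -3.14 in series A and -0.99 in series B. The controls themselves stood at 63.9 CPM (parental) and 32.6 CPM (vector). IL17RD was chosen on these same knockdown and control libraries, so the p-value is given as a description. The adjusted p ran from 0.0273 to 0.211 over the alternatives tried, which were chosen after seeing the data.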

How the results depend on the processing

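The number of genes called between knockdown and control, 109, became 1313 with DESeq2's test, 1920 with no filter, 17 with a mean of at least 5 CPM, 6 without a series term, 291 with the GC trend removed and 1 to 2087 when 1 library was left out. Of the 10 genes, 2 were called there, against 0 with DESeq2 size factors, 0 with a mean of at least 5 CPM (where EGR3 was not tested), 0 without a series term, 4 with no filter (FOSL1 and DUSP6 added) and 0 to 2 with 1 library left out. DESeq2's test called 3, with FOSL1 (adjusted p = 0.00346) added. For mutants against knockdown, 0 genes became 23 with DESeq2, 166 with no filter and 0 to 996 with 1 library left out, and IL17RD was the 1 member called with DESeq2, with no filter (1) and without shDDX3X 3 (0 to 1 over libraries left out). For wild type against knockdown, 0 became 3, 57 and 0 to 596, with 1 member (IL17RD) called with no filter and 0 to 1 with a library left out. For mutants against wild type, 0 became 36 with no filter. Without shDDX3X 3 the series are separated by the 2 controls alone. For the difference between series, 1 member called became 0 with the GC trend removed and 0 to 3 with a library left out (EGR1 and DUSP6 added without shDDX3X 1, FOSL1 alone without shDDX3X 2). The cause of these changes was not tested.

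With the replicate block, in place of the series term, 32 genes and 1 of the 10 (IL17RD) were called between knockdown and control, and the log2 values of SPRY2 and SPRY4 were -0.019 and -0.29. The numbers pair 2 libraries of each group, with correlations of 0.353 and -0.258 between deviations from the group means, so they were taken as names only. The transgene-labelled libraries have no such numbers, and a paired fit was not run for them.

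The direction of EGR1, knockdown against control, turned without the vector control (0.059) and without shDDX3X 3 (0.064), in a range of -1.87 to 0.064 with 1 library left out, and that of EGR2 turned without shDDX3X 2 (-0.65 to 0.096). Without shDDX3X 3, the lower end of each range, it turned in mutants against knockdown for EGR1 (-0.40 to 1.54), FOS (-0.66 to 0.83), DUSP4 (-0.11 to 0.56) and DUSP6 (-0.14 to 1.34), and in wild type against knockdown for EGR1 (-0.32 to 1.62), FOS (-0.48 to 1.01), DUSP4 (-0.011 to 0.66) and DUSP6 (-0.34 to 1.14). Without a series term it turned for FOSL1 in both (0.73 and 0.34). FOSL1 in mutants against knockdown also turned with the GC trend removed (0.18) and without the parental control, the vector control or shDDX3X 1 (-0.92 to 0.21 over libraries left out). In mutants against wild type, EGR3 turned with DESeq2 size factors (0.0016), DESeq2's test (0.0045), no filter (0.014) and the GC trend removed (0.017). There, leaving out G302V or P568L turned EGR1 (-0.33 to 0.057), EGR3 (-0.20 to 0.099) and DUSP4 (-0.32 to 0.016), and leaving out P568L turned FOS (-0.34 to 0.068). Over 639 values of single genes under an alternative, 549 kept direction and side of the threshold, 52 lost and 8 gained a call, and 30 changed sign. Most of these values belonged to results not called in the main fit, which cannot lose a call. The 549 therefore do not measure how stable the calls were. The median ratios per library moved by at most 0.0915 under 28 alternatives. EGR3 rested on 3 to 35 reads per library.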
